A study of Saccharomyces cerevisiae with 7 samples.

Results

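Peptidyl prolyl isomerases turn the peptide bond before a proline between its cis and trans forms. Budding yeast has several classes of them, and the 10 genes described here are members of those classes, chosen by gene name: the FK506-binding proteins *FPR1*, *FPR2*, *FPR3* and *FPR4*, the cyclophilins *CPR1*, *CPR2*, *CPR3*, *CPR6* and *CPR7*, and the parvulin *ESS1*. All 10 were among the 5110 genes counted, and the rule that picks them uses names and no measured value. *FPR3* and *FPR4* were themselves deleted in some of the strains, so the question addressed was whether the isomerase genes that remained had more RNA where these were gone.

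FK506-binding proteins are named for binding the immunosuppressant FK506, and cyclophilins for binding cyclosporin A. Fpr3 and Fpr4 are nuclear proteins, enriched in the nucleolus, that join an acidic histone chaperone region to an isomerase domain at the C terminus. Yeast tolerates the loss of every FK506-binding protein and cyclophilin, whereas *ESS1* is essential.

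RNA depleted of rRNA was sequenced from 7 genotypes with 1 library each, every one grown from a single colony isolate in rich medium to the middle of log phase. Wild type was BY4741, and the Δ*fpr3*, Δ*fpr4* and Δ*sir2* strains were isogenic to it, while the double mutant, Δ*fpr3*Δ*fpr4*, was built by replacing *FPR4* in a Δ*fpr3* strain. These 5 made up the survey. The Δ*fpr3*Δ*trf5* strain and the triple mutant, which lacks *FPR3*, *FPR4* and *TRF5*, came from the synthetic genetic array cross, whose query strain carried *FPR4* on a *URA3* plasmid and whose progeny differ from the survey strains in selection markers. Strain origin and loss of *TRF5*, a gene of the nuclear RNA surveillance complex TRAMP5, therefore cannot be told apart when the cross strains are set beside the survey strains. By the methods, cross progeny with functional *FPR4* were selected without uracil, which keeps the plasmid. Those lacking both paralogs were selected on 5-FOA, which removes it. The cross strains thus also differ from each other in plasmid and selection, which cannot be told apart from loss of *FPR4*. No genotype had a second library, so no difference has a replicate check, and each test on reads compares 2 libraries rather than 2 conditions. In RNA from a whole culture, fewer cells expressing a gene cannot be told apart from less RNA per cell.

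Total counted reads ran from 627679 in the triple mutant to 1242534 in Δ*sir2*. Each deletion was visible as 0 reads of the gene, with the exception of 2 *TRF5* reads in the triple mutant. *CAN1* and *LYP1*, permease genes removed in such crosses, had 168 to 216 reads in the survey libraries and 0 to 3 in the cross libraries, and *LEU2*, the marker placed at *FPR3* in the query strain, had 35 to 70 reads in the cross libraries and 0 in the survey. *URA3* had 0 reads in all 7 libraries.

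The 2 deleted paralogs are shown first, since reads of 1 could be counted for the other if their sequences were alike. *FPR3* (YML074C, chrXIII:120089-121324, minus strand, sacCer3) and *FPR4* (YLR449W, chrXII:1030834-1032012, plus strand) are each a single coding exon of 1236 and 1179 bases, and neither overlaps another annotated gene. The stretch of 120 coding bases where they are most alike lies near the 3′ end, in the part that encodes the isomerase domain. It is chrXIII:120138-120257 in *FPR3* and chrXII:1031847-1031966 in *FPR4*, and the capitals mark the 20 bases that differ:
FPR3: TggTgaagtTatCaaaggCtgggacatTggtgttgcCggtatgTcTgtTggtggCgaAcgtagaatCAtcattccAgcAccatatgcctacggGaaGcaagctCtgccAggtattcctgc
FPR4: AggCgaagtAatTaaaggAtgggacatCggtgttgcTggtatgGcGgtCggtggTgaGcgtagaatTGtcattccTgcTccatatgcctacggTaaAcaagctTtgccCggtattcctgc
The other 100 bases of the window are identical. The longest exact run that the 2 coding sequences share is 23 bases, aagaagaagaagaagaagaagaa, at chrXIII:120605-120627 and chrXII:1031405-1031427. Among the other pairs of the 10 genes the longest shared run is also 23 bases. In the libraries no read of either gene was counted where it was deleted. *FPR3* had 0 reads in each of the 4 libraries that lack it while *FPR4* had 256 in Δ*fpr3*, and *FPR4* had 0 reads in Δ*fpr4* while *FPR3* had 196.

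The regions upstream of the members called in more than 1 comparison below, *FPR2*, *CPR1* and *ESS1*, are shown from 250 bases before the start codon to the first 50 coding bases, read from the RefSeq genome R64, the same assembly as sacCer3. Capitals mark a heat shock element, spelled TTCNNGAA, the only one of 5 searched motifs found in any of these 3. The regions are chrIV:1480175-1480474 (plus strand) for *FPR2*, chrIV:768951-769250 (minus strand) for *CPR1* and chrX:466984-467283 (minus strand) for *ESS1*:
FPR2: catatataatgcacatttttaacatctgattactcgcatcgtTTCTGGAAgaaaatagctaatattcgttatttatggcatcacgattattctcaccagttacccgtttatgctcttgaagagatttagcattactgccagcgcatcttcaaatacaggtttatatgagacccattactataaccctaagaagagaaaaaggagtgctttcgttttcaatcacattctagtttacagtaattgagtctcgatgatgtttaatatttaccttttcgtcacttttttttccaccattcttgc
CPR1: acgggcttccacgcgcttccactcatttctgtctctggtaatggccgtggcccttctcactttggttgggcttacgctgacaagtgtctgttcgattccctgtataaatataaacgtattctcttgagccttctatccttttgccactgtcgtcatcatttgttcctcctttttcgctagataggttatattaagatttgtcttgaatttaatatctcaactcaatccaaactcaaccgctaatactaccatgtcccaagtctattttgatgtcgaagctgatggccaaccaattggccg
ESS1: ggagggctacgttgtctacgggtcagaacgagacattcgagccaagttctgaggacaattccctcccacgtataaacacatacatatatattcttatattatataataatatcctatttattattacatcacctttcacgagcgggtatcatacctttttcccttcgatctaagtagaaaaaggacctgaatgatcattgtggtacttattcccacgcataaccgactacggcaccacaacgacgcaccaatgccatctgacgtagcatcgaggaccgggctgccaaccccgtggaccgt
Both strands were searched in 6020 such regions. The heat shock element was also found upstream of *CPR3* and *CPR6*, which makes 3 of the 10 members, beside 12.8% of all regions. The stress response element AGGGG was found in the regions of *FPR1* and *CPR7*, beside 21.6% of all regions, and AAAAATTT, the ribosomal RNA processing element, in that of *FPR3*, beside 14.1%. The AGGGG match of *CPR7* lies within the first 50 coding bases and not upstream of the start codon. The unfolded protein response motif CAGNGTG (5.38% of all regions) and the PAC motif GATGAG (20.3%) were found in none of the 10. A match of letters is a description and was not tested as a binding site.

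Levels are given as RPKM, reads scaled to the length of the gene and to the counted reads of the library, with 95% Poisson intervals that cover counting error only. *CPR1*, the main cytosolic cyclophilin and the target of cyclosporin A, was first and *FPR1*, the cytosolic receptor of rapamycin and FK506, was second in all 7 libraries, and neither interval overlapped that of the next gene. In wild type they stood at 2881 (2739 to 3029) and 1228 (1118 to 1345) RPKM, and *CPR1* alone made up 55.3% of the summed RPKM of the 10. *CPR6*, a cyclophilin that binds Hsp90, came next in wild type at 243 RPKM (217 to 273). *FPR4* at 185, *CPR3* at 172, *FPR3* at 164, *FPR2* at 141 and *ESS1* at 116 followed, and the intervals of neighbours in that run overlapped. *CPR7*, the other Hsp90-binding cyclophilin, had 51.1 RPKM, and *CPR2*, a cyclophilin of the secretory pathway, had 28.1, with overlapping intervals. *CPR6* came next after *FPR1* in the other libraries too, save the triple mutant, where *CPR3* did. The interval of *CPR6* overlapped that of the gene below it in Δ*fpr3*, the double mutant and Δ*fpr3*Δ*trf5*. In the triple mutant the intervals of *CPR3*, *ESS1* and *CPR6* overlapped.

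**Figure D1:**
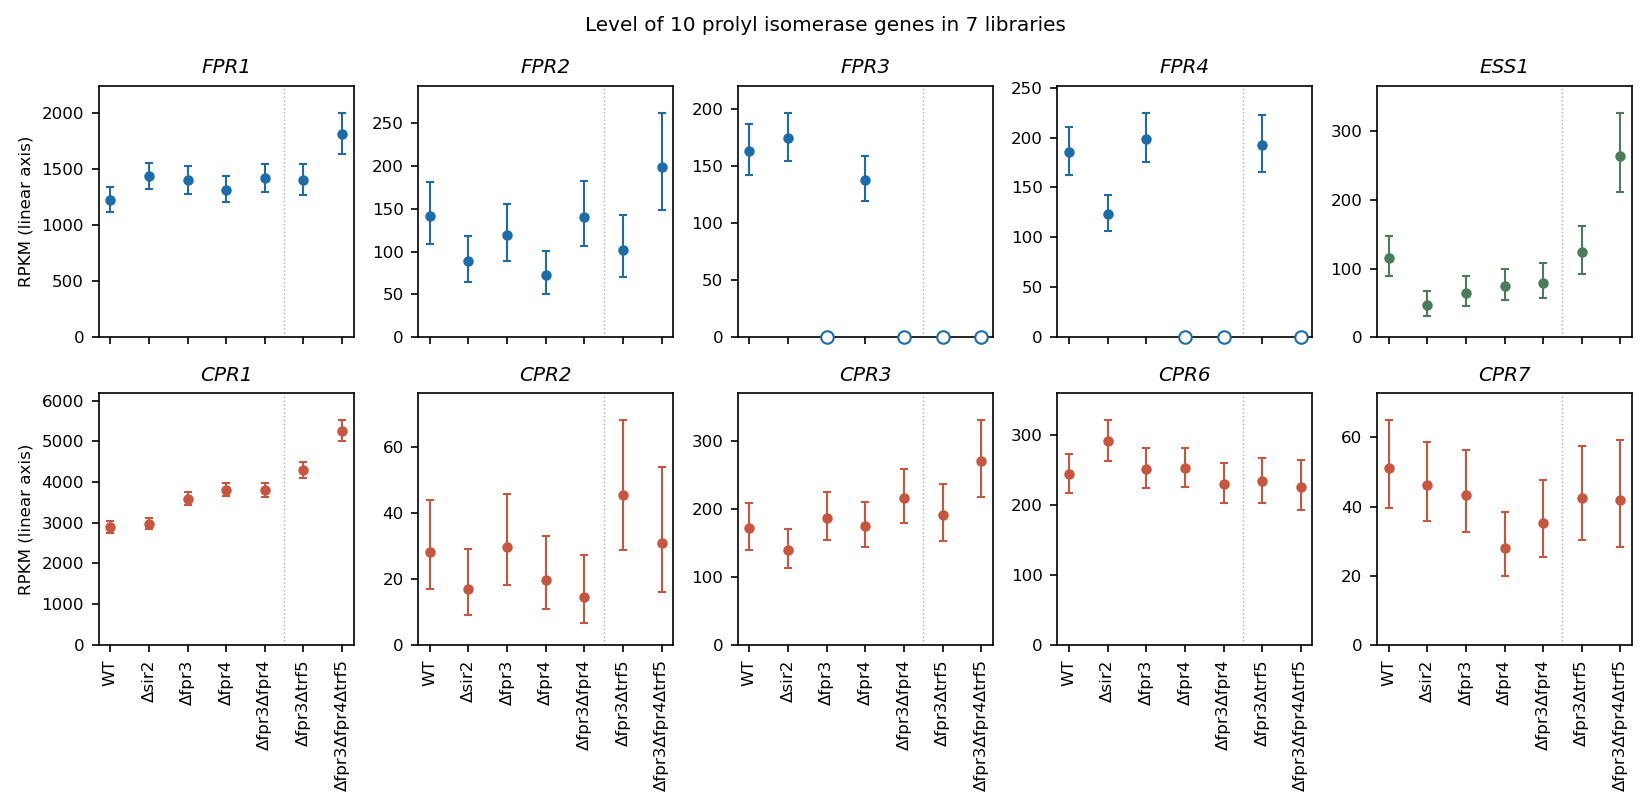
Level of each of the 10 isomerase genes in RPKM (linear axes from 0, a scale of its own in each panel) in the 7 libraries, 1 per genotype; bars are 95% Poisson intervals (counting error only), open circles are libraries with 0 reads, and the dotted line separates survey from cross strains. *CPR1* ran from 2881 RPKM in wild type to 5252 in the triple mutant, and *ESS1* from 47.1 in Δ*sir2* to 264 in the triple mutant.

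Neither paralog was called different when the other was deleted. *FPR4* had 185 RPKM in wild type and 199 in Δ*fpr3*, which is 0.10 on the log2 scale (95% interval -0.16 to 0.36, adjusted p = 0.654). *FPR3* had 164 RPKM in wild type and 138 in Δ*fpr4*, which is -0.24 on the log2 scale (-0.53 to 0.04, adjusted p = 0.228). The intervals leave room for a rise of *FPR4* of up to 0.36 and for a rise of *FPR3* of up to 0.04 on the log2 scale. In Δ*sir2*, which holds both genes, *FPR3* stood at 175 RPKM and *FPR4* at 124. There *FPR4* fell by 0.58 on the log2 scale against wild type (interval -0.87 to -0.30, adjusted p = 0.000340). The 1 cross strain with *FPR4*, Δ*fpr3*Δ*trf5*, had it at 193 RPKM from 186 reads, close to its level in Δ*fpr3*, and this library had 0 reads of *URA3*, the marker of the plasmid copy. The methods selected such progeny without uracil and with clonNAT, whose resistance gene replaced chromosomal *FPR4* in the query strain. By that selection the copy would be the one on the plasmid, which the *URA3* reads do not show. Which copy gave the *FPR4* reads was not tested. Where a paralog was deleted, its level was at least 73.6-fold lower than in wild type for *FPR3* in Δ*fpr3*, 83.8-fold for *FPR4* in Δ*fpr4*, and 68.0-fold and 73.6-fold for *FPR3* and *FPR4* in the double mutant, each bound counting 3 reads for the deleted gene.

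A gene was called between 2 libraries if a chi-square test of its reads passed a Benjamini-Hochberg adjusted p of 0.05 over all genes tested and its log2 fold change, computed on RPKM plus 1, passed 1.3-fold. In Δ*fpr3* against wild type, 1 of the 9 members with reads in both libraries was called, beside 12.3% of all genes tested, and that gene, *ESS1*, was lower. In Δ*fpr4*, 3 of 9 were called, beside 13.1% of all genes, with *CPR1* higher and *FPR2* and *CPR7* lower. In the double mutant, 1 of 8 was called, *CPR1*, which was higher, beside 14.4% of all genes. These 3 comparisons share the wild-type library. The median log2 fold change of the 8 members that no strain lacks was 0.06 for Δ*fpr3*, -0.24 for Δ*fpr4* and -0.04 for the double mutant, beside -0.10, -0.10 and -0.09 over all genes tested. Setting each all-gene median to 0 turned the split of calls over all genes from 200 higher and 385 lower to 300 and 213 in Δ*fpr3*, from 185 and 443 to 292 and 258 in Δ*fpr4*, and from 241 and 445 to 356 and 302 in the double mutant, so the rescaled values of called members are given beside their main ones.

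*CPR1* was the member with the most reads, 1540 to 2141 per library. Its RPKM was 2881 in wild type, 2967 in Δ*sir2*, 3584 in Δ*fpr3*, 3807 in Δ*fpr4*, 3805 in the double mutant, 4287 in Δ*fpr3*Δ*trf5* and 5252 in the triple mutant. The 5 libraries that lack *FPR3*, *FPR4* or both thus all lay above the 2 that hold both genes, and the Poisson intervals of the former did not reach those of the latter. Of these 5, 2 are the cross strains, which also differ in origin and *TRF5* and had the fewest total reads, 819135 and 627679. Duplicate fragments were collapsed, which limits heavily read genes, and *CPR1* had 3.15 to 4.38 reads per base. Whether depth moved its RPKM was not tested. Against wild type *CPR1* rose in Δ*fpr4* (0.40 on the log2 scale, 0.31 to 0.50, adjusted p = 1.04e-14) and in the double mutant (0.40, 0.30 to 0.50, adjusted p = 3.75e-14), each 1.32-fold and so just past the fold threshold. In Δ*fpr3* it stood 1.24-fold higher, 0.31 on the log2 scale (0.22 to 0.41, adjusted p = 9.32e-09), which did not pass the fold threshold. With the all-gene median at 0 these values were 0.50, 0.49 and 0.42, and the last was then called. In Δ*sir2* the value was 0.04 (-0.06 to 0.14, adjusted p = 0.581). With the all-gene median at 0 it was 0.17 there (adjusted p = 0.00506), short of the fold threshold. With the Δ*sir2* library as reference in place of wild type, the values in Δ*fpr4* and the double mutant were both 0.36, with adjusted p of 2.37e-13 and 1.67e-12, and neither passed the fold threshold. Of the 196 genes with at least 1000 reads in wild type, the class to which *CPR1* belongs, 8.67% were called higher for Δ*fpr3*, 4.59% for Δ*fpr4* and 10.7% for the double mutant, and their medians were 0.03, 0.02 and -0.0037.

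*FPR1* ranged 1.48-fold from its lowest to its highest library. It had 1228 RPKM in wild type, 1439 in Δ*sir2*, 1401 in Δ*fpr3*, 1318 in Δ*fpr4*, 1419 in the double mutant, 1401 in Δ*fpr3*Δ*trf5* and 1815 in the triple mutant. Wild type was the lowest of the 7, yet *FPR1* was called in no comparison, with a log2 fold change of 0.19 (0.01 to 0.37) in Δ*fpr3*, 0.10 (-0.08 to 0.29) in Δ*fpr4* and 0.21 (0.02 to 0.39) in the double mutant.

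*FPR2*, which encodes an isomerase of the endoplasmic reticulum, was lowest in the Δ*fpr4* library. It had 141 RPKM in wild type, 88.8 in Δ*sir2*, 119 in Δ*fpr3*, 72.5 in Δ*fpr4*, 141 in the double mutant, 102 in Δ*fpr3*Δ*trf5* and 199 in the triple mutant, from 34 to 63 reads. The interval in Δ*fpr4* (50.2 to 101) overlapped those in Δ*sir2* (64.7 to 119), Δ*fpr3* (89.0 to 155) and Δ*fpr3*Δ*trf5* (70.5 to 142), which all hold *FPR4*. The libraries of wild type and the double mutant were level with each other. *FPR2* fell in Δ*fpr4* by 0.95 on the log2 scale (interval -1.61 to -0.34, adjusted p = 0.0129; -0.86 with the all-gene median at 0, adjusted p = 0.0312). Against the Δ*sir2* library the value was -0.29 (adjusted p = 0.570), so that call rests on the wild-type library as reference.

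*ESS1*, which encodes the parvulin that acts on the C-terminal domain of RNA polymerase II, had the widest range of the 10. Its RPKM was 116 in wild type, 47.1 in Δ*sir2*, 64.2 in Δ*fpr3*, 74.6 in Δ*fpr4*, 79.2 in the double mutant, 124 in Δ*fpr3*Δ*trf5* and 264 in the triple mutant, from 30 to 85 reads. Wild type was above the 4 other survey libraries. *ESS1* fell by 0.84 in Δ*fpr3* (-1.48 to -0.24, adjusted p = 0.0292) and by 1.28 in Δ*sir2* (-1.98 to -0.66, adjusted p = 0.000252). The values in Δ*fpr4* and the double mutant, -0.63 (-1.22 to -0.06) and -0.54 (-1.15 to 0.04), were not called. With the all-gene median at 0 the call in Δ*sir2* held (-1.16, adjusted p = 0.00135) and that in Δ*fpr3* was lost (-0.74, adjusted p = 0.0680). Against the Δ*sir2* library the value in Δ*fpr3* turned to 0.44 (adjusted p = 0.424).

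The other cyclophilins gave 1 call among them. *CPR7* had 51.1 RPKM in wild type, 46.3 in Δ*sir2*, 43.4 in Δ*fpr3*, 28.0 in Δ*fpr4*, 35.2 in the double mutant, 42.3 in Δ*fpr3*Δ*trf5* and 41.8 in the triple mutant. It fell in Δ*fpr4* by 0.85 (-1.49 to -0.27, adjusted p = 0.0212; -0.75 with the all-gene median at 0, adjusted p = 0.0495), and against the Δ*sir2* library the value was -0.71 (adjusted p = 0.0510). *CPR6*, which like *CPR7* binds Hsp90, was the steadiest member present in every library, from 226 to 291 RPKM. *CPR3*, the mitochondrial cyclophilin, ran from 139 RPKM in Δ*sir2* to 270 in the triple mutant, and in the double mutant it stood at 217 against 172 in wild type (0.33, -0.06 to 0.73, not called). *CPR2* had only 9 to 23 reads a library, and its interval against wild type ran from -0.91 to 1.06 on the log2 scale in Δ*fpr3* and from -2.29 to 0.25 in the double mutant, so differences inside these intervals were not detectable at this depth.

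**Figure D2:**
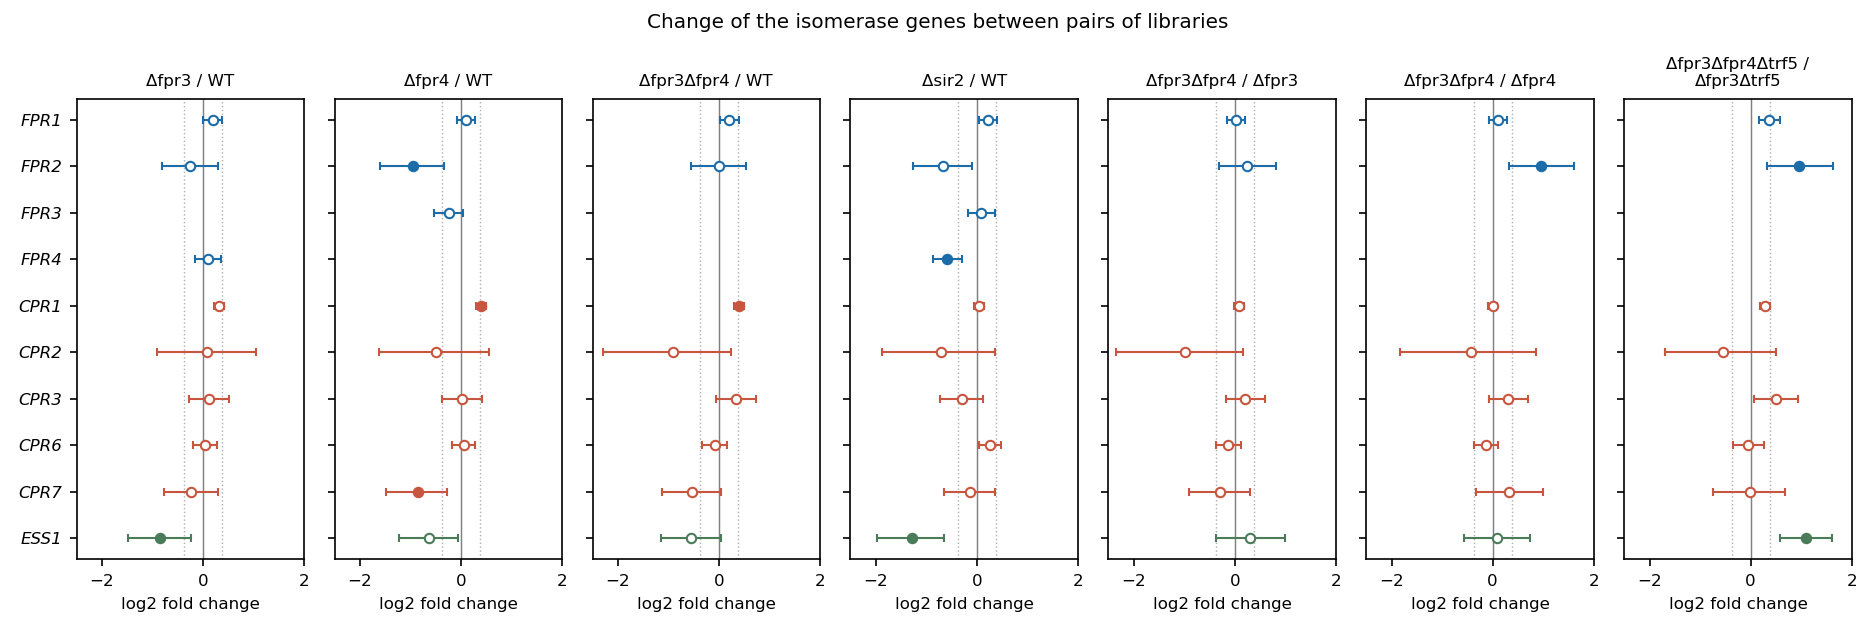
Log2 fold change of RPKM plus 1 (x axis) of each of the 10 isomerase genes in 7 pairs of libraries; bars are 95% intervals from the exact binomial interval of the reads (counting error only), filled points were called, dotted lines mark 1.3-fold, and genes with 0 reads in either library are left blank. *CPR1* was called higher at 0.40 in both Δ*fpr4* and the double mutant against wild type, and no member was called in the double mutant against Δ*fpr3*.

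The Δ*sir2* strain keeps both paralogs and shows how the members differ between a pair of survey libraries that do. Of its 10 members 2 were called, *FPR4* and *ESS1*, both lower, beside 19.8% of all genes (248 higher and 697 lower, or 419 and 458 with the all-gene median at 0, which itself was -0.13). *FPR1* at 0.23 (adjusted p = 0.0425) did not pass the fold threshold, and *CPR6* at 0.25 (adjusted p = 0.0747) was called only with that median at 0 (0.38, adjusted p = 0.00385).

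The summed level of the 8 members that no strain lacks was higher in the survey libraries that lack *FPR3*, *FPR4* or both than in wild type, and *CPR1* made up most of the difference. The sum was 4861 RPKM in wild type (4667 to 5054), 5036 in Δ*sir2*, then 5678 and 5746 in the Δ*fpr3* and Δ*fpr4* libraries and 5940 in the double mutant (5717 to 6163). Over wild type this was 818 RPKM more for Δ*fpr3*, 886 for Δ*fpr4* and 1079 in the double mutant, and *CPR1* alone rose by 703, 926 and 924 RPKM. With the all-gene medians set to that of wild type, the sum in Δ*sir2* stood further above wild type, though below those in Δ*fpr3*, Δ*fpr4* and the double mutant. Those rescaled sums are given in the closing sections, and the values here are not rescaled. *FPR3* and *FPR4* together had 349 RPKM in wild type. Without *CPR1*, the other 7 members summed to 1979 RPKM in wild type (1850 to 2109) and to 2135 in the double mutant (1993 to 2276). In the Δ*fpr3* and Δ*fpr4* libraries they summed to 2094 and 1939. Without *FPR1* as well, the other 6 summed to 752 RPKM in wild type (687 to 816) and to 716 in the double mutant (650 to 782). In the Δ*fpr3* and Δ*fpr4* libraries these 6 summed to 694 and 621. In RPKM without rescaling, the sum of the 6 was thus no higher in any of the 3. *CPR1* and *FPR1* both stood above wild type in all 3, so leaving them out in part fixes that result. Within the FK506-binding proteins, all 4 summed to 1718 RPKM in wild type and in Δ*fpr3*, to 1528 in Δ*fpr4* and to 1559 in the double mutant. In the cross strains the 8 summed to 6425 RPKM in Δ*fpr3*Δ*trf5* and 8098 in the triple mutant. The share of *CPR1* among the 10 was 64.9% in the latter.

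**Figure D3:**
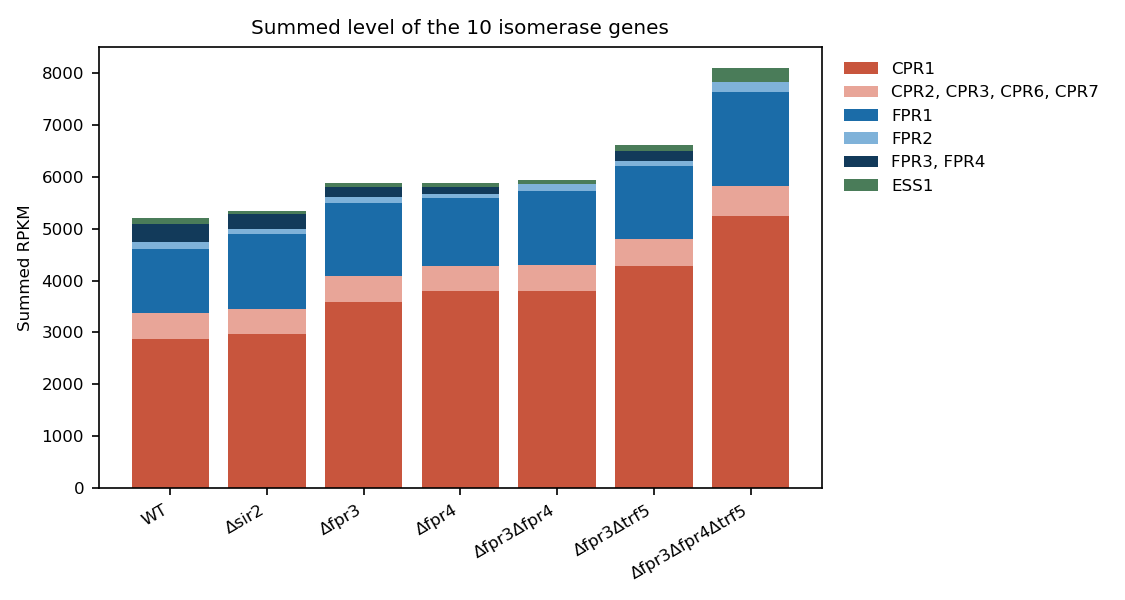
Stacked RPKM (y axis from 0) of the 10 isomerase genes in the 7 libraries, 1 per genotype. The segment of *CPR1* grew from 2881 RPKM in wild type to 3805 in the double mutant, while that of *FPR3* and *FPR4* went from 349 to 0.

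On loss of the second paralog *FPR2* was the 1 member called, a count near the share of all genes. In the double mutant against Δ*fpr3*, 0 of 8 were called, beside 9.99% of all genes, and 0 of 8 had an unadjusted p under 0.05. *CPR1* stood at 0.09 (-0.01 to 0.18) and *FPR1* at 0.02 (-0.16 to 0.20) in that pair. In the double mutant against Δ*fpr4*, 1 of 8 was called, beside 6.26% of all genes. That gene was *FPR2*, which rose by 0.95 on the log2 scale (0.32 to 1.61, adjusted p = 0.0252), from 72.5 to 141 RPKM. *CPR1* was level in this pair, at 3805 and 3807 RPKM.

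Whether the change in the double deletion differed from the 2 single changes combined was tested as a ratio of ratios, (double mutant / Δ*fpr3*) / (Δ*fpr4* / wild type), with a Wald test on the reads. It passed for 2 of the 8 members, beside 11.8% of 4378 genes tested. *FPR2* stood at 1.21 on the log2 scale (0.40 to 2.01, adjusted p = 0.0342), with 141 RPKM in the double mutant where the product of the single changes is 61.0. *CPR1* stood at -0.32 (-0.45 to -0.18, adjusted p = 0.000114), with 3805 RPKM where the product is 4735. The median over all genes was 0.11. With that median at 0 *CPR1* held (-0.43, adjusted p = 1.52e-08) and *FPR2* did not (1.10, adjusted p = 0.0626). *ESS1* at 0.94 (0.09 to 1.79, adjusted p = 0.146) did not pass. All 4 libraries enter every one of these ratios once, so a library that stands apart for a gene moves it.

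**Figure D4:**
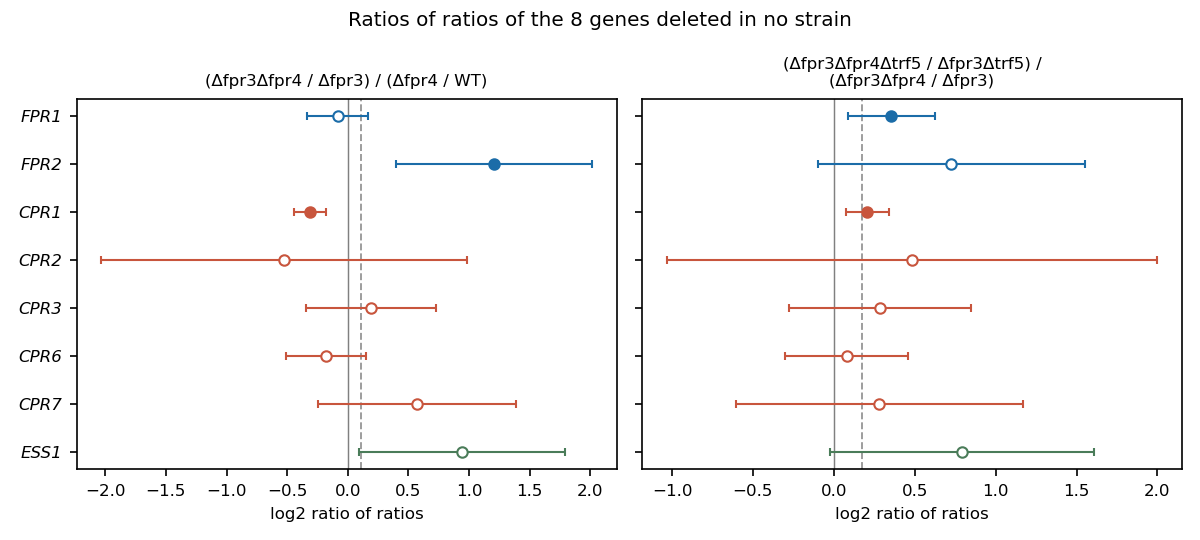
Log2 ratio of ratios (x axis) of the 8 isomerase genes that no strain lacks; bars are 95% Wald intervals (counting error only), filled points passed an adjusted p of 0.05, and the dashed line is the median over all genes tested. At left *FPR2* stands at 1.21 and *CPR1* at -0.32, and at right *FPR1* stands at 0.35 and *CPR1* at 0.21, close to the all-gene median.

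Between the cross strains, the triple mutant against Δ*fpr3*Δ*trf5*, 2 of 8 members were called, *FPR2* and *ESS1*, both higher, beside 28.1% of all genes (978 higher and 351 lower, or 623 and 643 with the all-gene median of 0.20 set to 0). *ESS1* rose from 124 to 264 RPKM, 1.09 on the log2 scale (0.58 to 1.62, adjusted p = 9.87e-05), and was still called with that median at 0 (0.88, adjusted p = 0.00240). *FPR2* rose from 102 to 199 RPKM, 0.96 (0.31 to 1.64, adjusted p = 0.00965), a call lost on rescaling (0.76, adjusted p = 0.0519). *FPR1* at 0.37 (adjusted p = 0.00175), 1.29-fold, and *CPR1* at 0.29 (adjusted p = 7.13e-08), 1.23-fold, did not pass the fold threshold, and stood at 0.17 and 0.09 with the median at 0. The 139 genes with at least 1000 reads in Δ*fpr3*Δ*trf5*, *CPR1* among them, had a median of -0.19 before rescaling. Of these, 22 were called higher and 48 lower. *CPR3* went from 191 to 270 RPKM (0.49, 0.06 to 0.94, not called).

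The change with loss of *FPR4* was compared between these strains and the survey as (triple mutant / Δ*fpr3*Δ*trf5*) / (double mutant / Δ*fpr3*). The test passed for 2 of 8 members, beside 21.1% of 4281 genes tested. *FPR1* stood at 0.35 (0.09 to 0.62, adjusted p = 0.0460) and *CPR1* at 0.21 (0.07 to 0.34, adjusted p = 0.0164), beside a median of 0.17 over all genes. With that median at 0 neither passed (0.18, adjusted p = 0.365, and 0.04, adjusted p = 0.777).

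Of 5 further yeast isomerase genes, the secretory cyclophilins *CPR4*, *CPR5* and *CPR8* and the phosphatase activators *RRD1* and *RRD2*, 1 was called against wild type in Δ*fpr3*, and 0 were in the Δ*fpr4* or double mutant, beside 12.3%, 13.1% and 14.4% of all genes. *CPR4* fell by 0.57 in Δ*fpr3* (adjusted p = 0.0249), from 127 to 85.1 RPKM, a call lost with the all-gene median at 0 (-0.47, adjusted p = 0.0836), where *RRD1* (0.71, adjusted p = 0.0328) and *RRD2* (1.14, adjusted p = 0.0438) were called higher instead, as was *CPR5* in Δ*fpr4* (0.45, adjusted p = 0.0232). In Δ*sir2* *CPR4* fell by 0.93 (adjusted p = 4.37e-05) and *RRD1* fell by 0.81 (adjusted p = 0.0361). In the double mutant against Δ*fpr3*, *CPR5* rose by 0.46 (adjusted p = 0.0429) and *RRD1* fell by 1.36 (adjusted p = 0.000130), from 61.9 to 23.5 RPKM.

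Several chaperones known to act beside the members were called. Cpr6 and Cpr7 bind Hsp90, and of 12 genes for Hsp90 and its partners 5 were lower and 0 higher in the double mutant against wild type, beside 9.36% and 5.07% of all genes, with a median log2 fold change of -0.32 beside -0.09 over all genes. With the all-gene median at 0, 3 were lower. Among the called genes the largest falls were those of *PIH1*, *SBA1* and *HSP82*, by 1.36, 0.65 and 0.62, and the call of *PIH1*, from 24 to 8 reads, was lost on that rescaling. *CNS1* stood at -1.01, from 34 to 15 reads, and was not called (adjusted p = 0.0697). *HSP82*, a gene for Hsp90 itself, stood at 116 RPKM in wild type, at 143 and 130 in the Δ*fpr3* and Δ*fpr4* libraries and at 75.4 in the double mutant, and fell by 0.92 against Δ*fpr3* (adjusted p = 7.64e-10) and by 0.78 against Δ*fpr4* (adjusted p = 7.68e-07). *HSC82*, also a gene for Hsp90, had far more RNA, at 2247 RPKM in wild type and 2028 in the double mutant (-0.15, not called). It was level in the double mutant against Δ*fpr3* (-0.0085) and against Δ*fpr4* (0.02). In the triple mutant against Δ*fpr3*Δ*trf5*, 4 of the 12 were lower and 0 higher, beside 7.42% and 20.7% of all genes, with the median at -0.50 beside 0.20 over all genes, and *STI1*, *HSP82* and *HSC82* fell by 1.05, 0.90 and 0.80. Heavily read genes were more often lower in that pair. Of 139 genes with at least 1000 reads in Δ*fpr3*Δ*trf5*, 48 were lower and 22 higher, with a median of -0.19. *HSC82*, with 3330 reads there, is in that class, and *STI1* and *HSP82*, with 333 and 240, are not. In Δ*sir2*, 2 were higher and 1 lower, beside 5.2% and 14.6% of all genes, or 4 and 1 with the median at 0, with *HSP82* up by 0.56 (adjusted p = 5.62e-06) and *SBA1* down by 0.60 (adjusted p = 0.00431). In Δ*fpr3* 0 of 12 were called, beside 4.19% of all genes higher and 8.07% lower, and 1 was higher with the median at 0. In Δ*fpr4* 1 was higher and 2 were lower, beside 3.87% and 9.27% of all genes, and the 2 lower calls, *STI1* and *CDC37*, were lost with the median at 0. *CPR6* itself was called in none of these pairs.

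Of 7 genes for folding in the mitochondrion, where Cpr3 acts, *HSP60*, the chaperonin, and *SSC1*, the mitochondrial Hsp70, were lower in the double mutant against wild type and 0 were higher, beside the same 9.36% and 5.07% of all genes, and both calls held with the all-gene median at 0. *HSP60* went from 409 to 243 RPKM (-0.75, adjusted p = 3.07e-16) and *SSC1* from 674 to 445 (-0.60, adjusted p = 1.80e-20). Both also fell in the triple mutant against Δ*fpr3*Δ*trf5*, by 0.83 and 0.85. *SSC1* stood lower against wild type in Δ*fpr3* (-0.29) and in Δ*sir2* (-0.36) too, neither called. In Δ*fpr4*, *SSC1* (-0.43, adjusted p = 3.21e-12) and *MGE1* (-0.47, adjusted p = 0.0246) were called lower, 2 of the 7 beside 9.27% of all genes. Both of these calls were lost with the all-gene median at 0. *HSP10* was level in the double mutant against wild type (0.08, not called). Of 13 genes for folding in the endoplasmic reticulum, the compartment of Fpr2, 3 were lower in the double mutant against wild type and 1 was higher, beside those shares, or 2 and 2 with the median at 0, where the call of *KAR2*, the Hsp70 of that compartment, was lost. *SCJ1*, a J-domain cochaperone, fell by 1.87 from 39 to 9 reads and *ERO1*, an oxidase for disulfide bonds, by 0.62, while *HAC1*, which encodes the transcription factor of the unfolded protein response, rose by 0.49 (adjusted p = 5.73e-12). *HAC1* also rose in Δ*fpr3*, by 0.68 (adjusted p = 1.04e-24), the 1 gene of the 13 called there. In Δ*fpr4* it stood at 0.37 (adjusted p = 4.61e-07), just short of the fold threshold. The 1 gene of the 13 called in Δ*fpr4* was *ERO1*, lower by 0.48 (adjusted p = 0.00955), beside 9.27% of all genes. With the all-gene median at 0, 1 was higher and 0 were lower there.

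**Figure D5:**
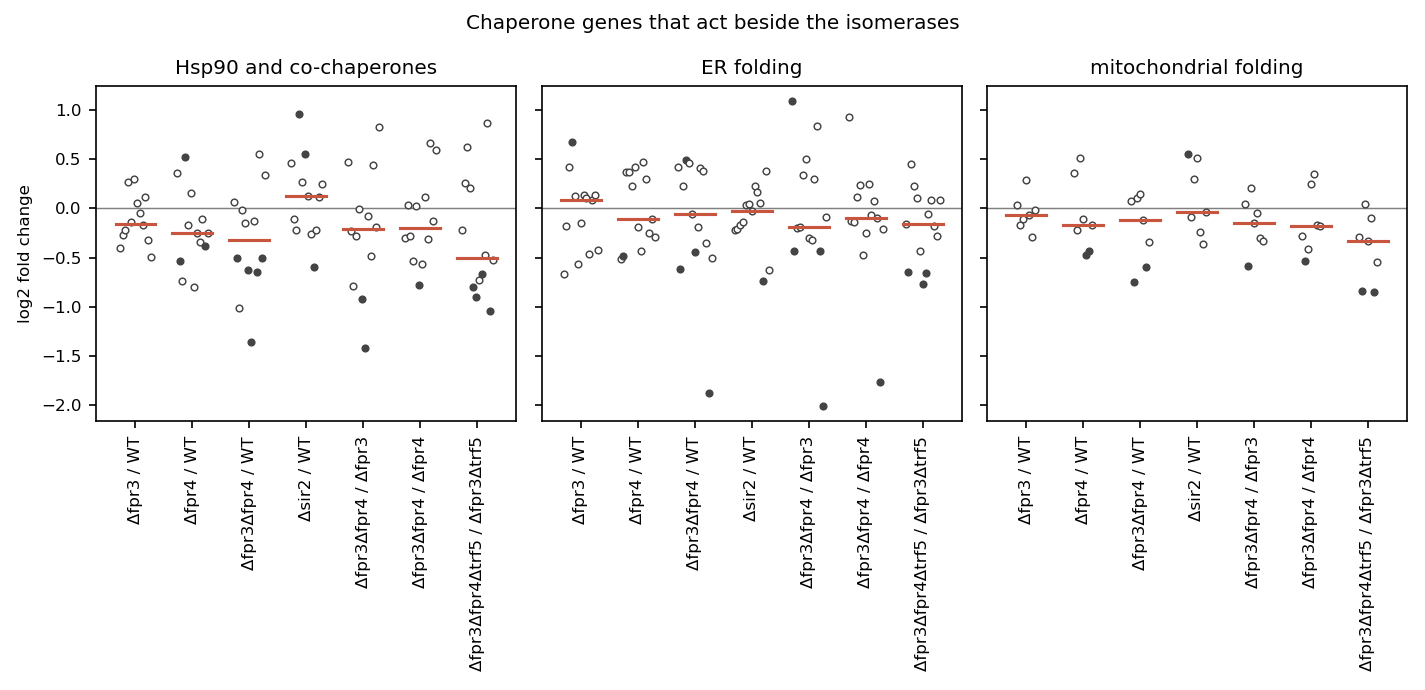
Log2 fold change (y axis) of 12 genes for Hsp90 and its partners, 13 for folding in the endoplasmic reticulum and 7 for folding in the mitochondrion, in 7 pairs of libraries; each point is a gene, filled points were called, and the bar is the median of the list. The median of the Hsp90 list stood at -0.32 in the double mutant against wild type and at -0.50 between the cross strains.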

How the data were processed

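Processed files of 7 libraries were used, 1 per genotype. For each gene the authors deposited whole-number read counts, which are not normalized, and an RPKM, whose column bears another name. The methods state that the authors aligned paired-end reads to sacCer3 with BWA, applied a mapping quality threshold, collapsed duplicate fragments, which limits counts of heavily read genes, and counted properly paired reads on the proper strand within Ensembl gene boundaries. The deposited RPKM was recomputed from the counts, and it deviated by at most 0.0979% where a gene had more than 20 reads. Total counts ran from 627679 to 1242534.

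The chi-square test, run on genes whose reads in both libraries summed to more than 5, had 1 degree of freedom and no continuity correction, and the Benjamini-Hochberg adjustment ran over all of them. A call also needed 1.3-fold on RPKM plus a pseudocount of 1. Ratios of ratios were tested over genes with more than 5 reads in each of the 4 libraries. A gene at 0 reads was set to 3 reads for bounds. All intervals and p-values cover counting error only. The rule was tested on simulated counts with counting error only. That test cannot show how the rule behaves where cultures vary.

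The members, gene lists and alternatives were chosen with earlier results of these data known. All 10 members are named; of each list up to 3 called genes with the largest change are named. Likeness was read over genes with at least 50 reads in every library. Gene positions were the same as in the RefSeq annotation for all 10. Software was Python 3.11.15, pandas 2.3.3, scipy 1.17.1, Biopython 1.88 and R 4.3.3 with edgeR 4.0.16 (TMM factors only).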

Additional observations from a re-analysis of the deposited data

Results flagged for a closer look

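In 4 cases the effect of a deletion on a member differed between strains by a test of the difference itself. The change of *FPR2* with loss of *FPR4* differed between strains with and without *FPR3* by 1.21 on the log2 scale, and that of *CPR1* by -0.32. Over all genes tested, 11.8% passed that test and the median was 0.11. The change with loss of *FPR4* differed between the cross strains and the survey by 0.35 for *FPR1* and 0.21 for *CPR1*. Over all genes tested, 21.1% passed and the median was 0.17, close to the value of *CPR1*. The *CPR1* value of -0.32 kept its adjusted p under the threshold with TMM scaling (-0.41, adjusted p = 4.79e-08), and the other 3 did not (*FPR2* 1.11, adjusted p = 0.0599; *FPR1* 0.15, adjusted p = 0.467; *CPR1* 0.0047, adjusted p = 0.971). Each rests on 4 libraries with no replicate.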

How the results depend on the processing

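With 1 library per genotype no library could be left out within a group. No paired analysis was possible because the labels give no genotype a second library. Pseudocounts of 0.1 and 5, no filter on reads, a minimum above 5 reads in both libraries, an RPKM minimum of 10 in either and an exact binomial test changed no call of a member. A 2-fold threshold left 0 member calls in Δ*fpr3*, Δ*fpr4*, the double mutant and in the double mutant against Δ*fpr4*, and 1 (*ESS1*) in Δ*sir2* and between the cross strains. TMM scaling and an all-gene median of 0 also left 1 between the cross strains, beside 26.6% and 26.7% of all genes. The 2-fold threshold lowered the calls over all genes from 585 to 197 in Δ*fpr3*, 628 to 199 in Δ*fpr4*, 686 to 218 in the double mutant, 945 to 352 in Δ*sir2*, 475 to 164 and 298 to 107 in the double mutant against Δ*fpr3* and Δ*fpr4*, and 1329 to 683 between the cross strains. A 1.5-fold threshold left 0 in the double mutant and 1 in Δ*sir2*, beside 10.5% and 14.4% of all genes. With the Δ*sir2* library as reference 0 members were called in Δ*fpr4*, beside 18.3% of all genes. With that reference *ESS1* in Δ*fpr3* turned to 0.44, and *FPR4* in Δ*fpr3* (0.68, adjusted p = 1.64e-05) and *CPR3* in the double mutant (0.63, adjusted p = 0.00911) were called higher, beside 12.8% and 15.7% of all genes called in either direction. The cause was not tested. Leaving out mitochondrial genes put *FPR1* between the cross strains past the fold threshold (0.38, adjusted p = 0.00134). The summed RPKM of the 8 members, with medians set to that of wild type, was 5499 in Δ*sir2*, 6105 in Δ*fpr3*, 6151 in Δ*fpr4*, 6312 in the double mutant, 6809 in Δ*fpr3*Δ*trf5* and 7480 in the triple mutant. With TMM scaling, where wild type stood at 4710, it was 5287 in Δ*sir2* and 7139 in the triple mutant. Of the members past the threshold for the interaction of the *FPR3* and *FPR4* deletions, 1 was left with TMM scaling and 1 with the all-gene median at 0, and 0 and 0 for *FPR4* loss with and without *TRF5*. The all-gene median for both, and TMM scaling for the latter, were added after the data were seen.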

Other observations

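Lists tied to other members were counted in the same way. Against wild type, the share of all genes called lower was 8.07% for Δ*fpr3*, 9.27% for Δ*fpr4* and 9.36% for the double mutant, and the share called higher was 4.19%, 3.87% and 5.07%. Of 10 genes of calcineurin and the TOR kinases, the pathways that FK506, cyclosporin A and rapamycin block through Fpr1 and Cpr1, 2 were lower in Δ*fpr3*, 2 lower and 1 higher in Δ*fpr4*, and 3 lower in the double mutant, or 0 of the 10, then 1 higher and 1 lower, then 0, with the all-gene medians at 0. *RCN1*, a regulator of calcineurin, fell by 1.32 in Δ*fpr3* and by 1.69 in Δ*fpr4*, from 26 reads in wild type to 10 and 8, and also fell by 1.63 in Δ*sir2*, which keeps both paralogs, to 9 reads (adjusted p = 0.00729). The call in Δ*fpr3* was lost with the median at 0. Of 6 genes of the Set3 histone deacetylase complex, in which Cpr1 is found, 2 were lower in Δ*fpr3*, 0 were called in Δ*fpr4* and 2 were lower in the double mutant, with *SIF2* down by 1.47 in Δ*fpr3*, and 1, 0 and 1 were lower with the medians at 0. *SIF2* also fell in Δ*sir2*, by 0.94 (adjusted p = 0.0297). Of 11 genes around the C-terminal domain of RNA polymerase II, on which Ess1 acts, 0 were called in Δ*fpr3*, 1 was higher and 2 lower in Δ*fpr4*, and 1 of the 10 tested, *NAB3*, was lower in the double mutant. With the medians at 0 these became 0, then 1 higher and 1 lower, then 0. Between the cross strains 3 of the 11 were higher, near the 20.7% of all genes, *SSU72*, *NRD1* and *FCP1*, by 2.12, 0.86 and 0.61, and with the all-gene median at 0, 2 were higher and 1 lower.

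As a description over the 7 libraries, the genes most like *CPR1* in log2(RPKM + 1) among 1702 were *TRX1* (Pearson r = 0.966) and *RPS16A* (0.964). Those most like *FPR1* were *AIM45* (0.992) and *RPL40A* (0.982), like *CPR3* were *TUM1* (0.965) and *PLB1* (0.958), and like *CPR6* were *RAD23* (0.988) and *OLA1* (0.955). Among the members, *CPR1* and *CPR3* gave r = 0.857 and *CPR3* and *CPR6* r = -0.878. All of these share the same libraries and totals.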
